A study of Mus musculus with 8 samples.

Results

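miR-874 is a microRNA whose hairpin lies within Klhl3, a gene of the distal tubule. The 2 arms of the hairpin, mmu-miR-874-3p and mmu-miR-874-5p, were followed in kidneys of diabetic db/db mice and of control mice. They were picked by name among the 1881 mouse miRNAs of the array, and with their values in these same samples already known. The difference of miR-874 between the genotypes is therefore given here as a description, with no test. mmu-miR-874-3p (miR-874-3p below) was detected on all 8 arrays and mmu-miR-874-5p (miR-874-5p) on none, so that 1 of the 2 arms was among the 316 miRNAs compared across the array.

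Total RNA of whole kidney was hybridised to 1-colour Agilent miRNA arrays, 1 array for each of 8 samples. All mice were males aged 28 weeks. The 4 db/db samples came from the strain C57BLKS/J Iar -+Leprdb/+Leprdb, mice that lack a working leptin receptor, overeat and become obese and diabetic. The 4 control samples are named dbm in their titles and m/m in their source, with the strain C57BLKS/J Iar -m+/m+, and the labels do not settle whether they carried a db allele. No sample is stated to come from a separate animal, so the spread given for a group is that between its samples. The arrays lay on 1 slide, the controls in row 1 and the db/db samples in row 2, so that genotype and slide row cannot be told apart. The number of detected miRNAs was 289 to 358 per array. The kidney markers miR-192-5p, miR-194-5p, miR-200b-3p, miR-200c-3p, miR-30a-5p and miR-204-5p were detected on every array.

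A microRNA is cut from a hairpin precursor as a short duplex, and 1 strand of it usually stays in the Argonaute protein to repress matching mRNAs while the other is degraded. Klhl3 encodes the adaptor through which the Cullin3 ubiquitin ligase recognises the WNK kinases. These kinases switch on the thiazide-sensitive NaCl cotransporter of the distal convoluted tubule, and mutations of KLHL3 in people cause familial hyperkalaemic hypertension. mRNAs reported as targets of miR-874 in other tissues include those of Aqp3, a water and glycerol channel that the collecting duct also carries, and Hdac1.

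The hairpin is shown because both arms and all probe sites lie in it. RefSeq places it on the minus strand of chromosome 13, chr13:58023125-58023200 (GRCm38.p6), inside the span of Klhl3, which runs on the same strand. No other miRNA gene of the table lies within Klhl3. Whether an exon or an intron of Klhl3 holds it was not examined here. The capitals mark the bases that the probes of the array pair with, the first run in the 5p arm and the second in the 3p arm.
Mir874 hairpin: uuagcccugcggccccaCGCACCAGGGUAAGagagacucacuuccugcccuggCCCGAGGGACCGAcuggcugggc
It is 76 bases long with a GC content of 68.4%.

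Each arm was read by 2 probes, with 15 spots per probe on every array. The probes are shown because the values of an arm rest on them, and the capital marks the base by which the longer probe of an arm exceeds the shorter.
A_54_P3036, miR-874-3p: tcggtccctcgg
A_54_P3037, miR-874-3p: tcggtccctcggG
A_54_P00005183, miR-874-5p: cttaccctggtgc
A_54_P00005184, miR-874-5p: cttaccctggtgcG
Every base of each probe matched the hairpin. The 3p probes pair with chr13:58023135-58023147 and the 5p probes with chr13:58023170-58023183 (GRCm38.p6, own match to the RefSeq hairpin). No other miRNA of the RefSeq table held a whole probe site. The longest run of bases that a 3p probe shared with a probe of another miRNA was 7, and for the 5p probes it was 9. None of the miRNAs with such a run was among those compared.

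Kidneys of db/db mice held more miR-874-3p than control kidneys in every sample. The signal is the mean of the 2 probes in scanner units, scaled so that the arrays were equal at the 75th percentile of 269 miRNAs, those that no array lacked. The controls, replicates 1 to 4, read 37.8, 34.3, 33.1 and 34.3. The db/db samples in the same order read 63.4, 54.7, 59.2 and 63.7. The lowest db/db sample, replicate 2, thus stood above the highest control, replicate 1, by 0.53 on the log2 scale, and the groups did not overlap. The db/db samples all lay above the controls for 24.7% of the 316 tested miRNAs. The replicates lay close together, with a coefficient of variation of 5.86% in control and 7.00% in db/db kidneys.

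On the log2 scale the control mean of miR-874-3p was 5.12 ± 0.08 and the db/db mean 5.91 ± 0.10 (± SD over 4 arrays). The difference was 0.79 ± 0.07 (SE of the limma fit), or 1.73-fold. Without scaling the signals were 33.2, 32.5, 31.5 and 36.2 in the controls and 70.0, 54.1, 62.5 and 65.9 in the db/db samples. The scaling thus brought the group means closer, from 33.4 to 34.9 in the controls and from 63.1 to 60.3 in the db/db samples. It also drew the db/db samples towards each other, though db/db replicate 2 and control replicates 1 to 3 went up. db/db replicate 1, the highest sample before scaling, was level with replicate 4 after it. The unscaled difference was 0.92 ± 0.09 (SE) on the log2 scale. The one alternative that moved the size by more than 1.5 times was normexp background correction, with its added offset of 50 signal units, where the difference was 0.26 ± 0.04 (SE) on the log2 scale.

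**Figure D1:**
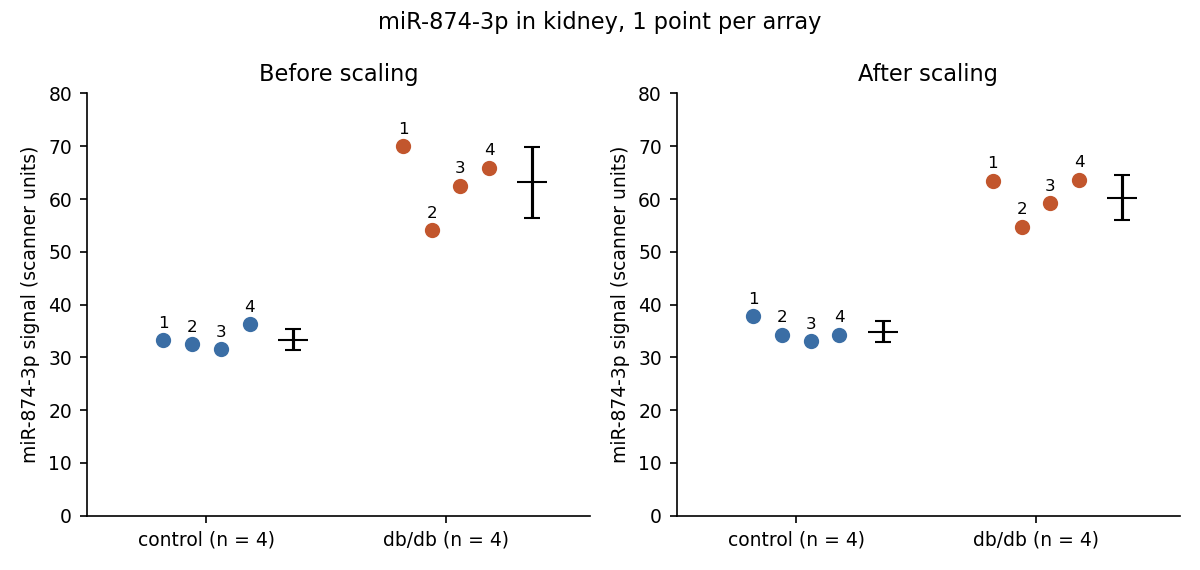
Signal of miR-874-3p in scanner units (y axis) for each array, numbered by replicate, before scaling (left) and after scaling (right); the black mark is the group mean and the bar its SD (n = 4). All 4 db/db samples, 54.7 to 63.7 after scaling, lie above all 4 controls, 33.1 to 37.8.

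The authors' deposited value table gives the same order of groups. It follows the scanner's gene total signal and is not a second measurement. Its values are relative to a divisor particular to the miRNA, so a ratio of 1 has no fixed meaning between miRNAs. For miR-874-3p the control ratios, replicates 1 to 4, were 0.822, 0.801, 0.773 and 0.793. Those of the db/db samples were 1.34, 1.22, 1.39 and 1.40, again without overlap. The difference in that table was 0.74 ± 0.05 (SE) on the log2 scale.

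Both 3p probes had the higher signal in every db/db sample. Probe A_54_P3037 read 51.4, 49.3, 49.4 and 55.0 scanner units before scaling in the controls, replicates 1 to 4. The db/db samples read 104, 83.3, 96.6 and 101. After scaling its difference was 0.78 on the log2 scale, or 1.71-fold. The spots of this probe did not overlap between the groups: the brightest of the control spots read 64.0 and the dimmest of the db/db spots 78.6, outliers aside. All 60 control spots and all 60 db/db spots were well above background.

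Probe A_54_P3036, 1 base shorter, read 15.1, 15.6, 13.7 and 17.4 units in the controls, replicates 1 to 4. The db/db samples read 36.0, 24.8, 28.5 and 30.8. Its difference was 0.82 on the log2 scale, or 1.77-fold, so the 2 probes gave like sizes. The longer probe holds every base of the shorter, so they read the same site and are not independent. The shorter probe was near the limit of its range in the controls. There 11 of 60 spots were well above background, against 50 of 60 in db/db kidneys. Single spots overlapped here, the brightest control spot reading 26.1 and the dimmest db/db spot 20.3. No spot of any miR-874 probe was saturated. Spots of 1 array are repeat readings of 1 sample and not replicates.

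The other arm, miR-874-5p, was not detected on any array. In the authors' deposited table its ratio on each array equals that of the blank spots. Probe A_54_P00005183 had mean signals between -4.76 and -1.75 in control and between -2.84 and 1.08 in db/db samples, and the groups overlapped. Probe A_54_P00005184 read 1.43, -1.25, -0.342 and -1.12 in the controls, replicates 1 to 4, and 6.15, 5.02, 4.73 and 3.98 in the db/db samples. Its groups did not overlap. None of the 120 spots of this probe was well above background. The median signal of the negative control spots was 5.08 to 6.84 on these arrays, and the db/db values of the probe lay at about that level. Taken over both probes the unscaled signal was -2.29 to -1.04 in the controls and 0.572 to 3.61 in the db/db samples, below detection throughout. No fold is given for miR-874-5p, since it was below detection in both groups.

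**Figure D2:**
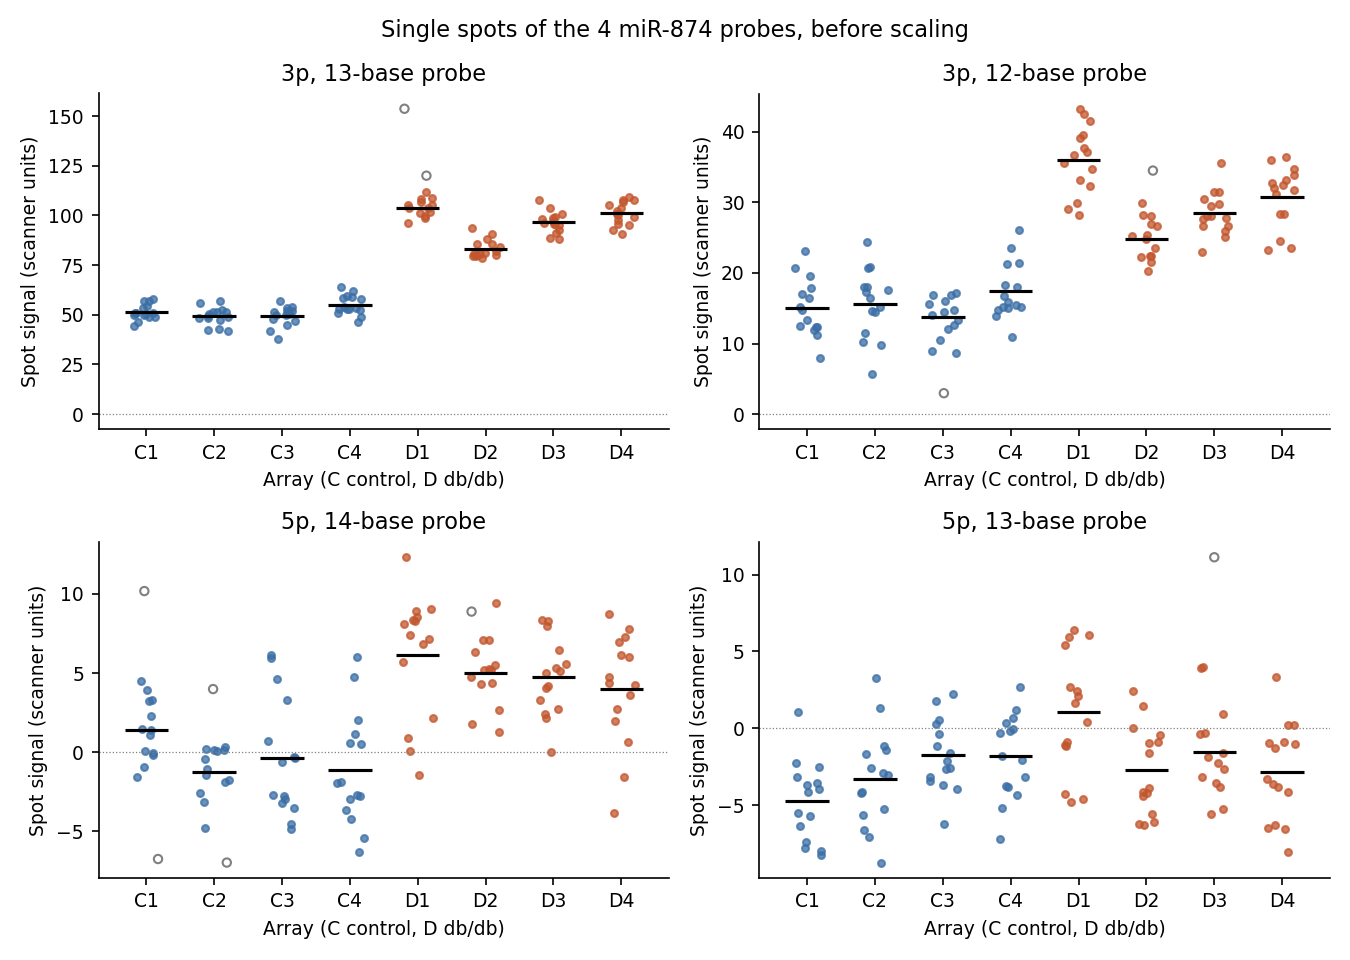
Signal of single spots (y axis, scanner units before scaling) of the 4 miR-874 probes on each array (x axis, C control and D db/db with the replicate number); black bars are means over spots and open grey circles are outlier spots left out of them. The longer 3p probe separates the groups at every spot not marked as an outlier, and no spot of either 5p probe was well above background.

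Of the 3533 probes of miRNAs detected on no array, the 4 db/db samples lay above the 4 controls for 78, or 2.21%. The median difference of these dim probes was -0.10 units, with the 5th and 95th percentiles at -1.46 and 1.46. For A_54_P00005184 it was 5.29 units and for A_54_P00005183 1.40 units. The longer 5p probe, A_54_P00005184, was among the 78, and the shorter was not. As no spot of either was well above background, no rise of miR-874-5p is read from this. The cause of the difference was not tested.

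Across the array, 77 of 316 miRNAs, or 24.4%, were called higher in db/db kidneys and 55, or 17.4%, lower (limma, threshold of 0.05 after Benjamini-Hochberg correction), 132 or 41.8% in all. miR-874-3p was among the 77, which is read as a description because the contrast was known when it was picked. The groups did not overlap with db/db higher for 78 miRNAs, or 24.7%, and in either direction for 131, or 41.5%. The split of calls moved with the scaling: 100 were higher and 28 lower with no scaling, 138 and 28 with scaling to labelling spike-ins, 23 and 11 with the percentile taken over all miRNAs, 68 and 78 with quantile normalization, and 57 and 54 in the authors' table. The median difference of all tested miRNAs was -0.02 on the log2 scale. It was 0.10 for unscaled signals and 0.15 after spike-in scaling. Relative to that median miR-874-3p stood at 0.81 in all 3. This equality was fixed in advance, since these scalings shift all miRNAs of an array by the same log2 amount.

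By size the difference of miR-874-3p was number 20 of the 316, counted from the largest increase. Of the 19 larger ones, 15 were of miRNAs not detected on every control array, 10 of them on none. The 4 others, named here after their values were seen, were miR-3102-5p, miR-3960, miR-204-5p and miR-30c-1-3p. Just above miR-874-3p in the order stood miR-3081-5p, with a difference of 1.01, and miR-30c-1-3p, the passenger arm of a miR-30 hairpin, with 1.00. Just below stood miR-5126 with 0.77 and miR-210-3p, the miRNA that hypoxia induces, with 0.77. These 4 neighbours had standard errors of 0.17 to 0.28, against 0.07 for miR-874-3p, and the differences among these 5 were not tested. In level miR-874-3p was of middle rank, number 151 of the 269 miRNAs detected on all arrays. Levels of different miRNAs rest on different probes, and this order is only that of their signals. Its pooled SD within the groups, 0.09 on the log2 scale, was close to the median of those miRNAs, 0.10.

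**Figure D3:**
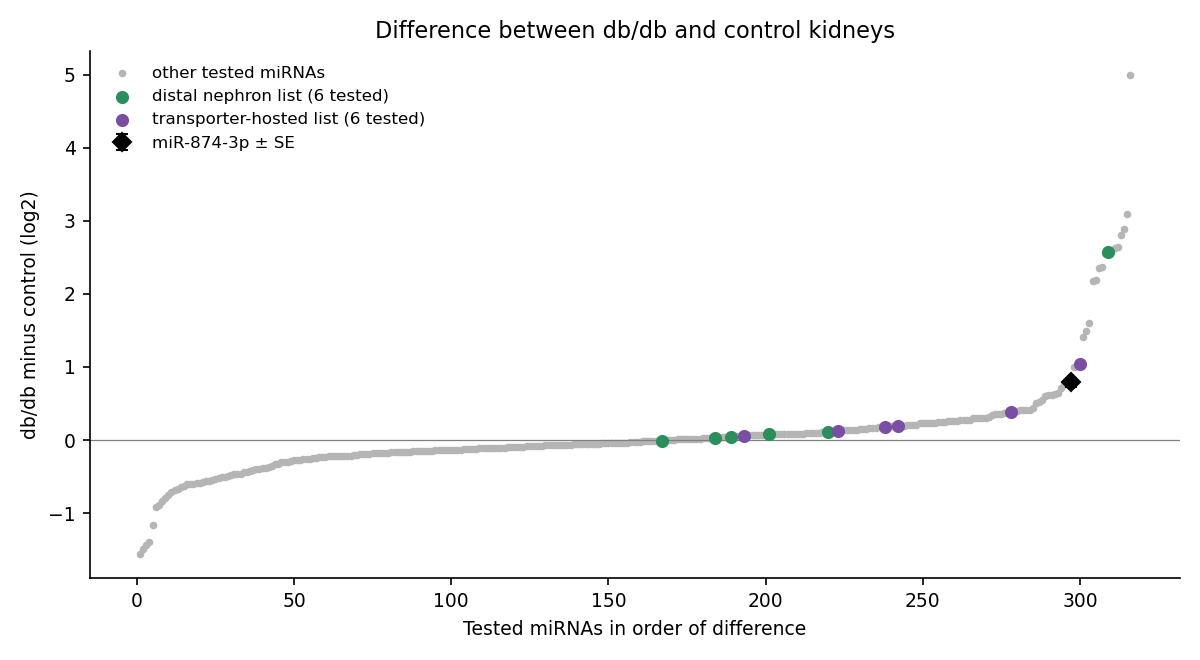
Difference between db/db and control kidneys on the log2 scale (y axis) for the 316 tested miRNAs in order of size (x axis); the diamond is miR-874-3p with its SE and coloured points are the miRNAs of the lists for the distal nephron and for hosts that are ion channels or transporters. miR-874-3p, at 0.79, stands at number 20 from the top.

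miRNAs listed for links to the distal nephron and collecting duct did not share one pattern in whole kidney. The list does not mark that segment, as miR-192-5p and miR-194-5p in it are also general kidney markers here. Of 10 miRNAs linked in the literature to WNK1, to the potassium channel ROMK, to the kinase SGK1 or to aldosterone, 6 were tested, 1 rose and none fell in limma; at an unadjusted p under 0.05 the counts were 1 and 0. Over all tested miRNAs 24.4% rose and 17.4% fell, so 1 of 6 is not above the share of the array. The risen one was miR-802-5p, reported to favour ROMK at the surface of collecting duct cells, which went from 3.61 ± 0.08 to 6.18 ± 0.28 (SD over 4 arrays; Benjamini-Hochberg p of 7.49e-06 in limma). It was detected on 3 of 4 control arrays. miR-802-5p is also known from liver, and beside it the hepatocyte miRNA miR-122-5p went from undetected on all 4 control arrays to 6.48 ± 0.61 (SD over 4 arrays) in db/db kidneys. The part of liver-type RNA in the rise of miR-802-5p was not tested. miR-192-5p, a repressor of Wnk1, stayed short of the threshold with a difference of 0.08 (Benjamini-Hochberg p of 0.216 in limma). For miR-194-5p, transcribed next to a miR-192 gene, the difference was -0.0072. The 3 tested miRNAs reported to respond to aldosterone, miR-24-3p, miR-27a-3p and miR-23a-3p, had differences of 0.11, 0.05 and 0.03 and did not pass either. The median of the 6 was 0.06, against -0.02 over all tested miRNAs. It turned to -0.04 with quantile normalization and to -0.0063 without db/db replicate 2. The number called was 5 with spike-in scaling and 2 with no scaling, all higher. Over all 316 miRNAs, 138 and 100 were called higher under these scalings. miR-335-3p, miR-290a-5p, miR-1983 and miR-466g were detected on no array.

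Among miRNAs that lie, like miR-874, within genes of kidney epithelium for ion transport or its control, 3 of 6 tested rose and none fell in limma, of 14 listed and 12 on the array. At an unadjusted p under 0.05 the counts were 4 and 0. The shares over all tested miRNAs were 24.4% and 17.4%, and with 6 members nothing particular to the list is read from its count. miR-204-5p, within the cation channel gene Trpm3, rose from 7.29 ± 0.04 to 8.34 ± 0.04 (SD over 4 arrays; Benjamini-Hochberg p of 1.94e-06 in limma), or 2.07-fold. Within Clcn5, the endosomal chloride transporter gene of the proximal tubule, miR-500-3p rose by 0.38 ± 0.05 (SE) and miR-362-3p by 0.18 ± 0.05 (SE). The neighbours miR-532-3p, miR-362-5p and miR-532-5p had differences of 0.19, 0.12 and 0.06 and did not pass. The median of the 6 was 0.19, against -0.02 over all tested, and 0.02 under normexp. The number called was 6 with spike-in scaling, 5 with no scaling and 1 with the percentile over all miRNAs, all higher. Over all 316 tested miRNAs, 138, 100 and 23 were called higher there. The list had 2 called, both higher, under normexp, in the authors' table and without db/db replicate 2. Over the array, 61 of 316, 57 of 316 and 69 of 333 were called higher in those 3 settings. miR-362-3p was not called in any of those 3, nor with the percentile over all miRNAs, nor with quantile normalization, which called miR-532-5p in its place. The percentile over all miRNAs also ended the call of miR-500-3p. The other 6 on the array were detected on no array.

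The nearest miRNA genes on the chromosome gave little to compare. On one side Mir6945 and Mir6944 had no arm detected on any array, and on the other Mir6369 had none. Mir7-1, the next after Mir6369, gave miR-7a-5p, abundant in islets and neurons and also made from other genes, with a difference of 0.02, and miR-7a-1-3p with 0.07. Their Benjamini-Hochberg p in limma was 0.774 and 0.477.

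The miRNAs whose log2 signal followed miR-874-3p most closely over the 8 arrays, by Pearson's r, were miR-23b-3p (0.983), miR-331-3p (0.982), miR-204-5p (0.980), miR-30d-5p (0.979) and miR-28c (0.974). All 5 were higher in db/db kidneys, by 0.20 for miR-331-3p to 1.05 for miR-204-5p on the log2 scale. Least alike were miR-709 (-0.963), the myeloid miR-223-3p (-0.958) and miR-146a-5p (-0.953), which NF-kB induces. Their differences were -0.79, -0.83 and -1.49. These correlations carry the step between the groups, which the 8 points share, and are a description of 268 miRNAs set against miR-874-3p. An r above 0.9 was reached by 31 and one below -0.9 by 14.

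With each group's mean subtracted, the likeness to most of these was small, with r of 0.165 for miR-204-5p, 0.261 for miR-30d-5p and 0.413 for miR-23b-3p. None of the 268 then passed 0.9 in either direction. The highest were miR-1906 (0.831), miR-190a-5p (0.826) and miR-331-3p (0.759), so that miR-331-3p alone stood in both orders. The differences of these 3 between the groups were -0.06, 0.20 and 0.20.

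**Figure D4:**
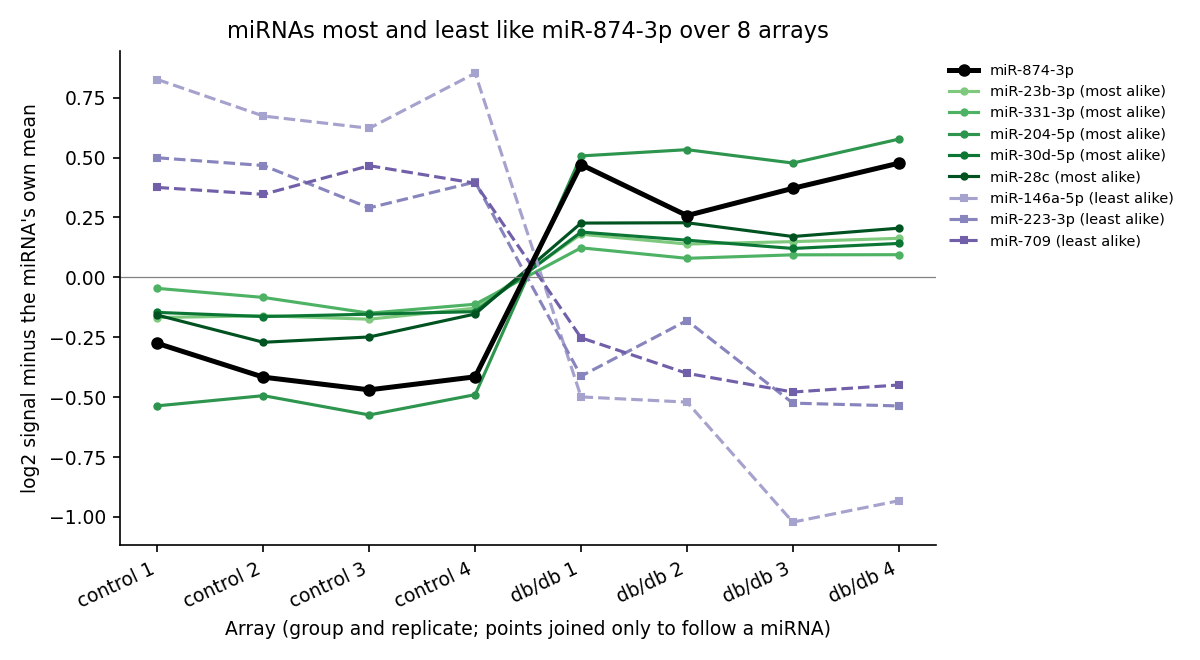
log2 signal minus each miRNA's own mean (y axis) on the 8 arrays (x axis) for miR-874-3p in black, the 5 miRNAs most alike in green and the 3 least alike in dashed purple; lines only join the points of a miRNA. miR-874-3p and the green miRNAs lie above their means in all db/db samples, and the purple ones below.

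Of the markers of other cells, those of leukocytes and hepatocytes moved with genotype beside miR-874-3p. In whole tissue, fewer cells of a type and less RNA per cell cannot be told apart. All 4 leukocyte miRNAs fell at the same threshold, where 17.4% of all tested miRNAs fell. Their summed signal was 445 to 599 in control and 191 to 283 in db/db kidneys. miR-122-5p, the miRNA of hepatocytes, was detected on no control array and on all 4 db/db arrays, where its signal was 50.2 to 133. The summed signal of the 6 kidney epithelial miRNAs was 13133 to 13910 in control and 14490 to 15101 in db/db samples, with 3 of them called higher (24.4% over all tested miRNAs) and none lower, also at an unadjusted p under 0.05. The number called higher was 5 with spike-in scaling and 1 with the percentile over all miRNAs, against 138 and 23 of all 316. For endothelium the sum was 3913 to 4194 against 3648 to 3807. For smooth muscle it was 452 to 519 against 452 to 508, and for red cells 703 to 3058 against 646 to 3564. No member of these 3 sets was called by limma, against 41.8% over all tested miRNAs. At an unadjusted p under 0.05, both endothelial miRNAs were lower and none of the other 4 passed. Of 23 alternatives fitted over the array, 6 called miR-126a-3p and 8 called miR-126a-5p, the endothelial pair. None called any of the other 4. The part of these shifts in the difference of miR-874-3p was not tested.

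The difference of miR-874-3p kept its direction under all 26 alternatives, from 0.26 with normexp to 0.96 with spike-in scaling. Some of these, such as a changed floor or detection filter, could not move the difference. With single arrays left out it was 0.75 to 0.83, and 0.74 when the median signal of undetected miRNAs was first subtracted, an alternative chosen after seeing the data.

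**Figure D5:**
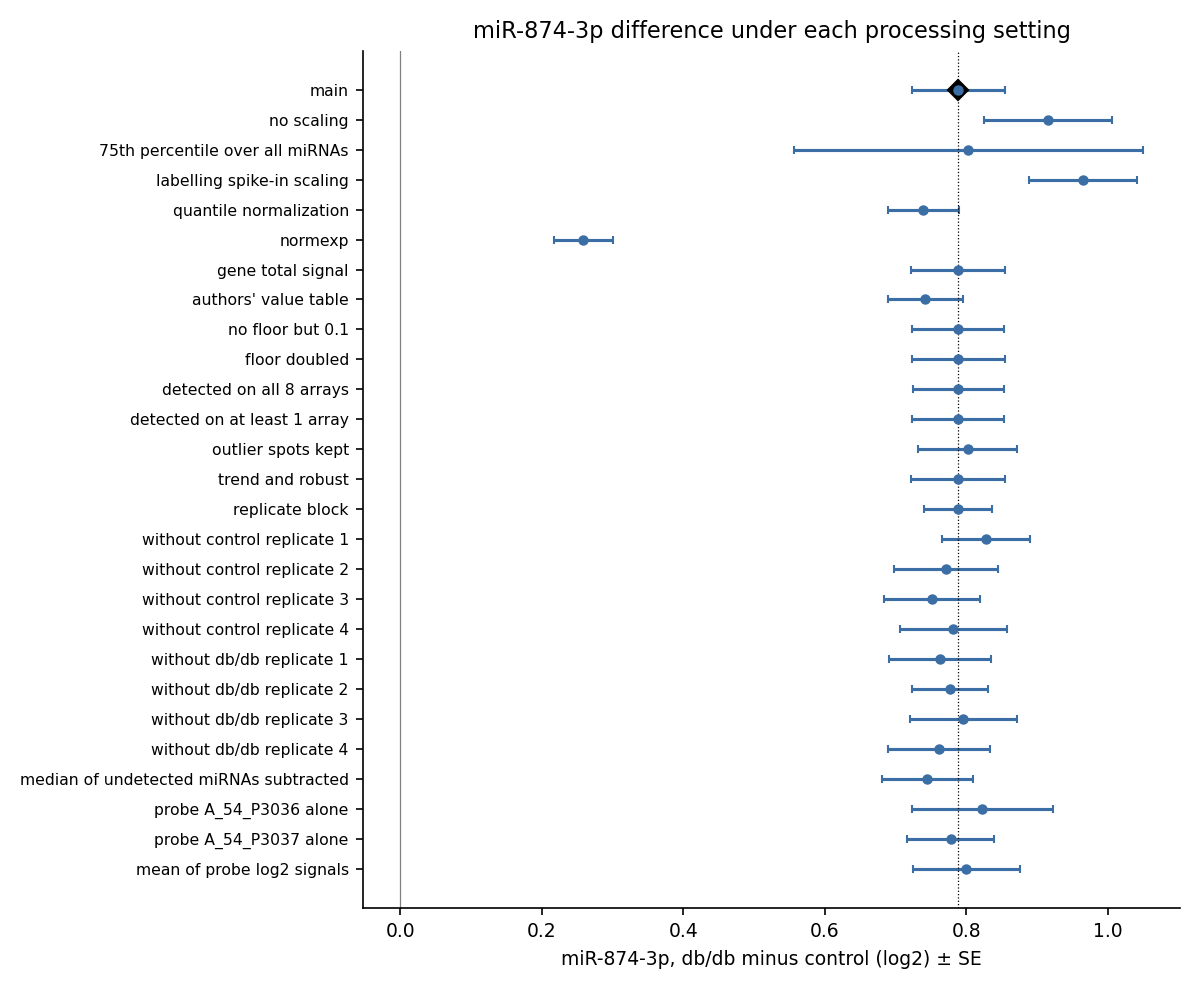
Difference of miR-874-3p between db/db and control kidneys on the log2 scale with its SE (x axis) under each processing setting (y axis); the diamond and dotted line are the value as reported, 0.79. The values lie between 0.74 and 0.96, apart from 0.26 under normexp.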

How the data were processed

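Kidney RNA (100 ng of total RNA, Cy3) was read on 8 arrays. The authors deposited spot intensity values that, per the file headers, Feature Extraction 12.0.3.1 wrote with spatial detrending and no dye normalization. Other flags in these files, as deposited, mark detected miRNAs, outlier, saturated and well-above-background spots. The authors also deposited a table with a linear ratio per miRNA and array; its divisors are not given in the sources used here, and it served as an alternative. Its column medians were 1.11, 1.10, 1.10 and 0.980 in control and 0.857, 1.01, 0.994 and 0.947 in db/db replicates 1 to 4. Its differences between arrays followed those of the scanner's gene total signal, so its direction and linear scale are known.

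Processed signals were averaged over non-outlier spots and then over probes, scaled per array to the 75th percentile over the 269 miRNAs that every array detected, set to a floor of 2.80 and taken as log2. miRNAs detected on all 4 arrays of a group were fitted with limma 3.58.1 (R 4.3.3, Python 3.11.15), 2-sided. The fit was tested on simulated data. The number of arrays limits the precision.

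The members and lists were chosen with earlier results of these data known. miRNAs were named as follows: the 5 most alike, 3 least alike and 3 most alike within groups, the tested members of both lists, and the 2 neighbours by size on each side; the part of the rule on shared seeds was not used. Also named were the cell type markers, arms of the nearest miRNA genes on the chromosome and list members that were not tested. The miRNAs detected on all 8 arrays with larger differences were named after their values were seen.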

Additional observations from a re-analysis of the deposited data

Results flagged for a closer look

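A single sample stood apart from the other 3 of its group for 2 of the miRNAs named beside miR-874-3p. miR-3102-5p was at 5.23 on the log2 scale in control replicate 1, above the other controls, and miR-532-3p was at 3.15 in control replicate 4, above the others of the group. Chance flags about 1 in 20 groups, and with the many groups looked at, 2 flags are not read as more than that. miR-874-3p itself had no such sample in either group.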

How the results depend on the processing

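The direction of miR-874-3p held under all 26 alternatives, and in 23 of them its difference stayed within 1 SD between replicates (0.09) of the reported 0.79. Among the 23, the percentile over all miRNAs gave 0.80 ± 0.25 (SE), less precise than the reported SE of 0.07. The difference moved further with no scaling (0.92), with spike-in scaling (0.96) and with normexp (0.26), whose offset of 50 adds to signals of similar size. Some of the 23 could not change the difference and gave the reported value exactly. These were the changes of floor and of detection filter, trend with robust fitting, and the replicate block. Alone, the longer 3p probe gave 0.78 and the shorter 0.82. Leaving out single arrays gave 0.75 to 0.83. For miR-874-5p no log2 difference is given under any setting, since it was detected on no array; its probe differences are in signal units. The count of called miRNAs, 132, was 34 with the percentile over all 1881 miRNAs, where most values near the percentile are undetected ones, and 114 to 153 with single arrays left out. Calls in the distal nephron list, 1 as reported, were 2 with no scaling, quantile normalization, normexp, trend with robust fitting and the replicate block, 5 with spike-in scaling, and 0 among miRNAs detected on all 8 arrays (1 at an unadjusted p under 0.05 in limma), a setting that leaves out miR-802-5p. They were 1 with any array left out. For the list of miRNAs within transport genes, 3 as reported, they were 5 with no scaling, 6 with spike-in scaling, 1 with the percentile over all miRNAs, 2 in the authors' table as well as with normexp, and 2 to 4 with single arrays left out. The replicate numbers were not taken to pair the samples. Same-numbered samples correlated in their deviations from the group means with r of -0.439, 0.583, 0.349 and -0.201. With so few arrays these values cannot exclude a pairing. With the replicate block the difference of miR-874-3p was 0.79 ± 0.05 (SE), the count of calls 144, and the calls in the 2 lists 2 and 3. Signal over background limits the shorter 3p probe in the controls and both 5p probes in all samples.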
